A study of Homo sapiens with 18 samples.

Results

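The genes described here are 40 genes of protein folding in the endoplasmic reticulum (ER) and of the heat shock response, taken by symbol from the count and CPM tables, which hold 21411 genes in all. They comprise 18 ER chaperones and folding enzymes, 10 genes of the unfolded protein response (UPR), ER-associated degradation and the translocon, and 12 cytosolic and mitochondrial heat shock genes. RNA was measured in 18 libraries of MDA-MB-231, an established triple-negative breast cancer line, grown for 7 days as spheroids in 3D Matrigel, with 3 libraries in each of 6 groups. The unedited line is named Jag1WT, and a pool of single-cell clones cut by Cas9 in JAG1 is named Jag1KO. From Jag1KO came cells that received Jagged1 cDNA on a plasmid (Jag1KO + rescue) or the same plasmid without an insert (Jag1KO + ctrl), and both were kept under G418. The siCtrl and siJag1 cultures are the parental line transfected with nontargeting or JAG1 siRNA shortly before seeding. The comparisons ask whether a change in JAG1, the gene of the Notch ligand Jagged1, comes with a change in these genes.

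Secreted and membrane proteins enter the ER through the SEC61 translocon and fold there with the help of chaperones of the Hsp70, Hsp90 and lectin families and of disulfide isomerases. When unfolded protein builds up, sensors that include IRE1 (encoded by ERN1) and ATF6 switch on the UPR. IRE1 splices the mRNA of the transcription factor XBP1, and XBP1 and ATF6 raise the transcription of chaperones and of genes that remove misfolded protein from the ER. Secretory cells depend on this system, and cells that deposit extracellular matrix load it with collagens and laminins. Unfolded protein in the cytosol is sensed apart from this, by the transcription factor HSF1, which raises HSPA1A, HSPA1B, HSPH1, DNAJB1 and other heat shock genes.

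Between 10330581 and 18327890 reads per library were counted on genes. JAG1 itself was at 433, 585 and 522 CPM in Jag1WT and 116, 205 and 149 in Jag1KO, at 534, 657 and 646 in Jag1KO + rescue and 110.2, 134 and 147 in Jag1KO + ctrl, and at 441, 626 and 531 in siCtrl and 166, 203 and 131 in siJag1. The edited gene can still give reads, so the level in Jag1KO does not measure the protein. The cell line markers VIM and CD44 were at 2184 to 4946 and 396 to 559 CPM, ESR1 was at 0.136 CPM or less, PGR at 1.77 or less and ERBB2 at 32.5 to 59.98. Of 9 markers of other cell types, 5 were under 1 CPM in every library, while CD68 was at 88.9 to 209, PECAM1 at 0.954 to 15.1, COL1A1 at 2.66 to 10.04 and PDGFRB at 0.13 to 1.35 CPM, and their part in the results was not tested. Libraries of the same group differed in growth state, as seen in the mean log2(CPM + 1) of 20 proliferation genes. It was 4.34, 5.22 and 4.30 in replicates 1, 2 and 3 of Jag1WT, 4.40, 6.00 and 6.26 in Jag1KO, 4.42, 5.38 and 4.42 in Jag1KO + rescue, 6.42, 6.89 and 4.69 in Jag1KO + ctrl, 4.46, 5.51 and 4.77 in siCtrl and 4.55, 6.73 and 4.71 in siJag1. Jag1KO replicate 1, Jag1KO + ctrl replicate 3 and siJag1 replicate 2 stood more than 1 log2 unit from their group means, and values without them are given beside the results that they moved most.

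Promoters are shown first, for the members that carry a sequence that XBP1 and ATF6 are known to use or, among the heat shock genes, that of HSF1. The window from 250 bases before to 50 after the start of transcription was taken from RefSeq (GRCh38.p14) for 39 of the 40 genes in 53 windows. PDIA3 had none. The ER stress element, searched as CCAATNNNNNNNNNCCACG on both strands, was found in 27 of 35116 windows of all genes (0.0769%) and in 10 of the 53 windows of members. These belonged to 8 of the 39 members (20.5%), which were HSPA5, HSP90B1, CALR, CANX, PDIA6, CRELD2, ERO1B and XBP1. The shorter ERSE-II, ATTGGNCCACG, was found in 0.0541% of all windows and in HYOU1, HERPUD1 and SDF2L1. The core of the UPR element, TGACGTGG, was found in 0.729% of all windows and in DNAJC10 and HYOU1, where it overlaps an ERSE-II. Stretches of 60 bases that hold the element are printed from the 5′ to the 3′ end of the gene's own strand, with the element in capitals. CGTGG on the left of the capitals marks the reverse complement.
HSPA5, chr9:125241370-125241429, minus strand: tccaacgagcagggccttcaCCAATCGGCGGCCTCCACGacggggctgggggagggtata
HSP90B1, chr12:103930196-103930255, plus strand: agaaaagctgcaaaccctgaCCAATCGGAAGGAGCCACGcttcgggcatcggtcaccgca
HSP90B1, chr12:103930301-103930360, plus strand: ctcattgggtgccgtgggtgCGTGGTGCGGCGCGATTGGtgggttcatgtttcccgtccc
CALR, chr19:12938364-12938423, plus strand: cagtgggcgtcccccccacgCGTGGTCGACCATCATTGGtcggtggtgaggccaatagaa
CANX, chr5:179698758-179698817, plus strand: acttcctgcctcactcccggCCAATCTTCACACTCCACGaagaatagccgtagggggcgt
PDIA6, chr2:10812832-10812891, minus strand: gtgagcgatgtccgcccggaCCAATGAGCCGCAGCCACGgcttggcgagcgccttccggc
XBP1, chr22:28800582-28800641, minus strand: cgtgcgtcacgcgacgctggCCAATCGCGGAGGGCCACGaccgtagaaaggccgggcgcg
HERPUD1, chr16:56932005-56932064, plus strand: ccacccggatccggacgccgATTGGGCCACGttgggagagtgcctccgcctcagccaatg
HYOU1, chr11:119057351-119057410, minus strand: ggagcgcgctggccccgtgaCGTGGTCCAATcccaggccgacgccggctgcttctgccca

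The element of HSPA5 lay 66 to 48 bases before the start and that of XBP1 52 to 34, while HSP90B1 held it at 194 to 176 and again at 89 to 71 bases. None of the 3 ER elements was found in ERO1A, ERN1 or ATF6, nor in DNAJB9, SEL1L, EDEM1 or the SEC61 genes. The heat shock element bound by HSF1, searched as GAANNTTCNNGAA or TTCNNGAANNTTC, was found in 0.49% of all windows and in 5 of the 53 windows of members. These belonged to 5 of the 39 members (12.8%), all of them heat shock genes. These were HSPA8, HSP90AA1, HSP90AB1, HSPD1 and DNAJA1, where it lies after the start. The exact letters were not in the windows of HSPA1A and HSPA1B. A match of letters is a description and says nothing about binding in these cells. Of the heat shock genes, 3 are printed with the element in capitals.
HSPA8, chr11:123062152-123062211, minus strand: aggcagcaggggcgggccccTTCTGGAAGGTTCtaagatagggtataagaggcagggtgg
HSP90AA1, chr14:102087093-102087152, minus strand: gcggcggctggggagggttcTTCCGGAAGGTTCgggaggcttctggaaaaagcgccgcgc
HSP90AB1, chr6:44247811-44247870, plus strand: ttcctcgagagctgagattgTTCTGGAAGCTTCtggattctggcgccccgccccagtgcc

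All 40 genes were above 1 CPM in every library, but their levels per length spanned a wide range. In RPKM, which divides the CPM by gene length, the highest of the ER list in Jag1WT were HSP90B1, the Hsp90 of the ER, at 715 ± 100.1 (SD, n = 3), and HSPA5, the ER Hsp70 also named BiP, at 655 ± 41.8. The lectin chaperones CALR and CANX followed at 567 ± 20.1 and 558 ± 30.2 RPKM, and P4HB, a disulfide isomerase, at 507 ± 42.0. The ranges of HSP90B1 and HSPA5 overlapped over the 3 libraries, as did those of CALR and CANX and of CANX and P4HB. HYOU1, a large chaperone that recharges BiP, was at 206 ± 5.41 RPKM, and the other ER genes lay between 5.89 ± 0.213 for CRELD2 and 171 ± 10.4 for PDIA4. ERO1A, an oxidase that supplies disulfide bonds, was at 52.5 ± 7.49 RPKM and its paralog ERO1B at 6.16 ± 0.848. In the UPR list the translocon genes SEC61A1 and SEC61B and the transcription factor XBP1 led, at 184 ± 6.14, 177 ± 10.1 and 164 ± 16.5 RPKM, with neighbouring ranges that overlapped. ERN1, which encodes the sensor IRE1, was at 36.6 ± 4.24 and ATF6 at 14.3 ± 0.771 RPKM. Among the heat shock genes HSP90AB1 was at 622 ± 5.99 RPKM, HSPA8, the constitutive Hsp70, at 353 ± 127 and HSP90AA1 at 204 ± 13.1. The stress-inducible HSPA1A and HSPA1B were at 33.3 ± 14.2 and 25.7 ± 10.5 RPKM in Jag1WT.

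Counts of some heat shock genes may be limited by repeated sequence, because the authors counted uniquely mapped reads. HSPA1A (chr6:31815543-31817942) and HSPA1B (chr6:31827738-31830254, GRCh38.p14) are neighbours whose canonical transcripts shared 75.1% of the 50-base stretches of HSPA1A, so their counts may rest mainly on the rest of each gene and are uncertain. Exact copies elsewhere on the chromosomes of hg38 covered 41.3% of the 50-base stretches of HSPD1, 37.2% of those of HSPE1 and 24.6%, 23.2% and 22.5% of those of HSP90AA1, HSPA8 and HSP90AB1. In the ER list the share was 21% for PDIA3 and 12.6% for HSPA5, and it was 0% for CANX, P4HB, HYOU1, MANF, XBP1 and SEL1L. A read from such a stretch has no unique position of its own, though its mate may give one. The levels of these genes per length can thus be understated, in every library of a gene alike. The loss of counts was not tested. Gene counts also do not separate spliced from unspliced XBP1 mRNA.

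**Figure D1:**
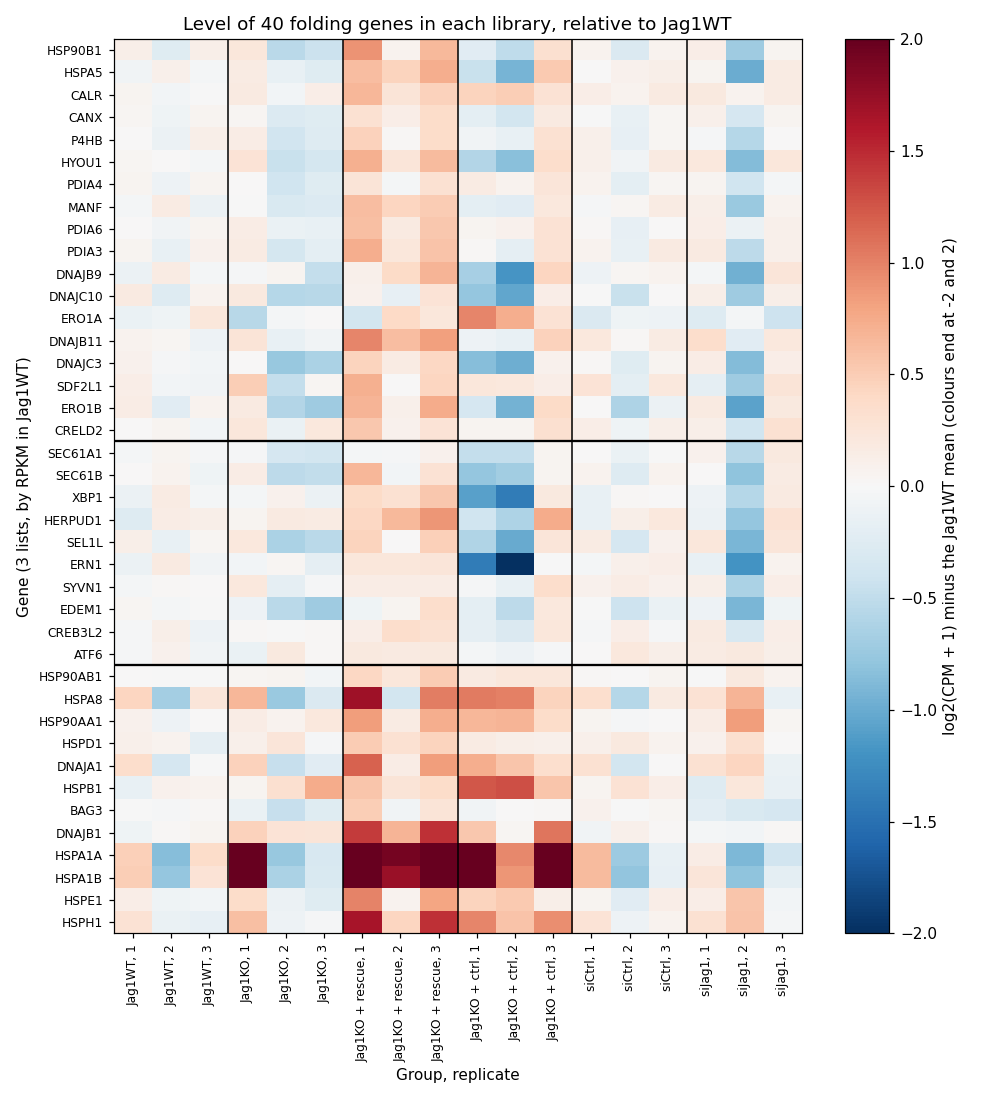
Level of the 40 genes (rows, by list and by RPKM in Jag1WT) in each of the 18 libraries (columns), as log2(CPM + 1) minus the mean of the 3 Jag1WT libraries. Blue marks lower and red higher levels. HSPA1A and HSPA1B were the most variable rows. Most UPR rows and part of the ER rows, among them HSPA5, were low together in Jag1KO + ctrl replicates 1 and 2 and in siJag1 replicate 2. Other ER rows were not, and CALR, PDIA4 and ERO1A were higher in every Jag1KO + ctrl library than in any Jag1WT library.

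In Jag1WT against Jag1KO, 0 of the 40 genes passed an FDR of 0.05 by the quasi-likelihood test of edgeR, where 0.714% of all 12879 genes tested did. None passed by limma or DESeq2 either, and 3 were at an unadjusted p under 0.05, against 8.81% of all genes. The median log2 fold change of the ER chaperones was 0.14, beside -0.0089 over all genes, 14 of 18 values were positive, and the range was from -0.12 for CRELD2 to 0.42 for DNAJC3, a co-chaperone of BiP. The UPR list had a median of 0.041 and the heat shock list of -0.13, with 9 of 12 heat shock values negative. The heat shock list mean was above every Jag1WT library only in Jag1KO replicate 1, at 8.0 log2(CPM + 1). Jag1KO replicates 2 and 3, at 7.17 and 7.32, lay within the Jag1WT range of 7.13 to 7.54. The lower list mean of Jag1WT thus came from that 1 library. With the proliferation mean as a covariate in a fit of all 18 libraries, chosen after the data had been seen, the ER and UPR medians turned to -0.12 and -0.12. The proliferation mean itself differed between the groups, so this fit may remove part of the difference compared. In bulk samples such as these, fewer cells of a kind and less RNA per cell cannot be told apart.

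HSP90B1 was at 2208, 1716 and 2216 CPM in Jag1WT, 2386, 1392 and 1515 in Jag1KO, 3770.0, 2125 and 3173 in Jag1KO + rescue and 1742, 1426 and 2535 in Jag1KO + ctrl. The siRNA cultures gave 2138, 1666 and 2136 CPM in siCtrl and 2222, 1238 and 2116 in siJag1. The level was lowest in replicate 2 of all 6 groups and Jag1WT and Jag1KO overlapped, with a log2 fold change of 0.21 ± 0.22 (FDR 0.828). HSPA5 was at 2478, 2788 and 2531 CPM in Jag1WT, 2906, 2329.8 and 2199 in Jag1KO, 4003, 3542 and 4319 in Jag1KO + rescue and 1914, 1355 and 3743 in Jag1KO + ctrl. In the siRNA cultures it was 2603, 2741 and 2811 CPM in siCtrl and 2692, 1300.4 and 2922 in siJag1. Here Jag1WT and Jag1KO again overlapped (0.065 ± 0.14 (FDR 0.931)), all 3 rescue libraries were above every Jag1WT and siCtrl library, and Jag1KO + ctrl replicates 1 and 2 and siJag1 replicate 2 were the lowest of all 18. CALR was at 1125, 1049 and 1079 CPM in Jag1WT, 1232, 1044 and 1193 in Jag1KO, 1711, 1303 and 1494 in Jag1KO + rescue and 1483, 1520.2 and 1327 in Jag1KO + ctrl. With siRNA the values were 1183, 1132 and 1228 CPM in siCtrl and 1243, 1137 and 1208 in siJag1. CALR, which holds calcium and glycoproteins in the ER, was the steadiest of the ER list within groups, and Jag1WT against Jag1KO gave -0.097 ± 0.11 (FDR 0.851).

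SEC61A1 was at 654, 696 and 662 CPM in Jag1WT, 661, 531 and 518 in Jag1KO, 653, 657 and 709 in Jag1KO + rescue and 481, 484 and 699 in Jag1KO + ctrl. The parental line with siRNA gave 671, 613 and 663 CPM in siCtrl and 709.9, 454 and 769 in siJag1. SEC61A1 forms the channel of the translocon, and its groups overlapped in Jag1WT against Jag1KO (0.23 ± 0.12 (FDR 0.634)). SEC61B was at 99.8, 105 and 93.3 CPM in Jag1WT, 109, 68.7 and 70.1 in Jag1KO, 158, 95.2 and 121 in Jag1KO + rescue and 57.3, 60.6 and 103 in Jag1KO + ctrl. After siRNA it stood at 105, 83.0 and 104 CPM in siCtrl and 99.8, 56.1 and 111 in siJag1. This smaller subunit was low in the libraries where SEC61A1 was low, with 0.26 ± 0.18 (FDR 0.722) in the same comparison. XBP1 was at 274, 332 and 289 CPM in Jag1WT, 290.4, 317 and 275 in Jag1KO, 389, 369 and 433 in Jag1KO + rescue and 139.9, 112 and 339 in Jag1KO + ctrl. The siRNA cultures gave 268, 303 and 300.2 CPM in siCtrl and 276, 199.8 and 337 in siJag1. XBP1 did not separate Jag1WT from Jag1KO (0.015 ± 0.11 (FDR 0.979)), and its lowest values were those of Jag1KO + ctrl replicates 1 and 2.

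HSP90AB1 was at 1819.9, 1795 and 1787 CPM in Jag1WT, 1857, 1863 and 1727 in Jag1KO, 2391, 2107 and 2562 in Jag1KO + rescue and 2047, 2117 and 2114 in Jag1KO + ctrl. In the siRNA cultures it was 1830.0, 1803 and 1864 CPM in siCtrl and 1794, 2066 and 1897 in siJag1. HSP90AB1, the constitutive cytosolic Hsp90, had the smallest spread within groups of all heat shock genes, and Jag1WT against Jag1KO gave -0.017 ± 0.11 (FDR 0.974). HSPA8 was at 1122, 521 and 985 CPM in Jag1WT, 1325, 498 and 679.8 in Jag1KO, 2705, 645 and 1686 in Jag1KO + rescue and 1716, 1676 and 1128 in Jag1KO + ctrl. With siRNA the values were 1047, 561 and 939 CPM in siCtrl and 1017, 1334 and 752 in siJag1. HSPA8 was lowest in replicate 2 of Jag1WT, Jag1KO, Jag1KO + rescue and siCtrl, but not in Jag1KO + ctrl or siJag1, and the comparison gave 0.068 ± 0.38 (FDR 0.972). HSP90AA1 was at 887, 780.5 and 835 CPM in Jag1WT, 924, 878 and 961 in Jag1KO, 1492, 931 and 1383 in Jag1KO + rescue and 1322, 1341 and 1069.8 in Jag1KO + ctrl. The parental line with siRNA gave 863, 823 and 842 CPM in siCtrl and 927, 1480.3 and 857 in siJag1. The inducible HSP90AA1 gave -0.15 ± 0.11 (FDR 0.732).

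Of the 40 genes, 3 kept Jag1WT apart from Jag1KO without overlap, and they are described here after their values had been seen. EDEM1, which sends misfolded glycoproteins to degradation, was at 211, 201 and 206 CPM in Jag1WT and 193, 141 and 125 in Jag1KO, with 0.42 ± 0.15 (FDR 0.442). BAG3, a co-chaperone that hands clients of Hsp70 to autophagy, was at 162, 159 and 166 CPM against 149, 117 and 137, with 0.27 ± 0.11 (FDR 0.521). DNAJB1, the Hsp40 partner of inducible Hsp70, was lower in Jag1WT, at 130.0, 140.0 and 144 CPM against 190.0, 167 and 166, with -0.34 ± 0.10 (FDR 0.328). Among all genes tested 7.24% were separated with Jag1WT higher and 6.58% with Jag1WT lower, so 2 and 1 of 40 is not more than the background.

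Without Jag1KO replicate 1 the edgeR test called 9.65% of 12782 genes in this comparison and 7 of the 40. ERO1B, DNAJC3, DNAJC10, SEL1L, EDEM1 and SEC61B were then higher in Jag1WT and HSPB1 was lower. The proliferation mean was 4.40, 6.00 and 6.26 in Jag1KO, so the library left out is the one with the Jag1WT level of that list. Its part in the calls was not tested further. In replicates 1, 2 and 3 of Jag1KO, the ER list mean was 8.33, 7.90 and 7.97 log2(CPM + 1), and in Jag1WT 8.25, 8.16 and 8.23.

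**Figure D2:**
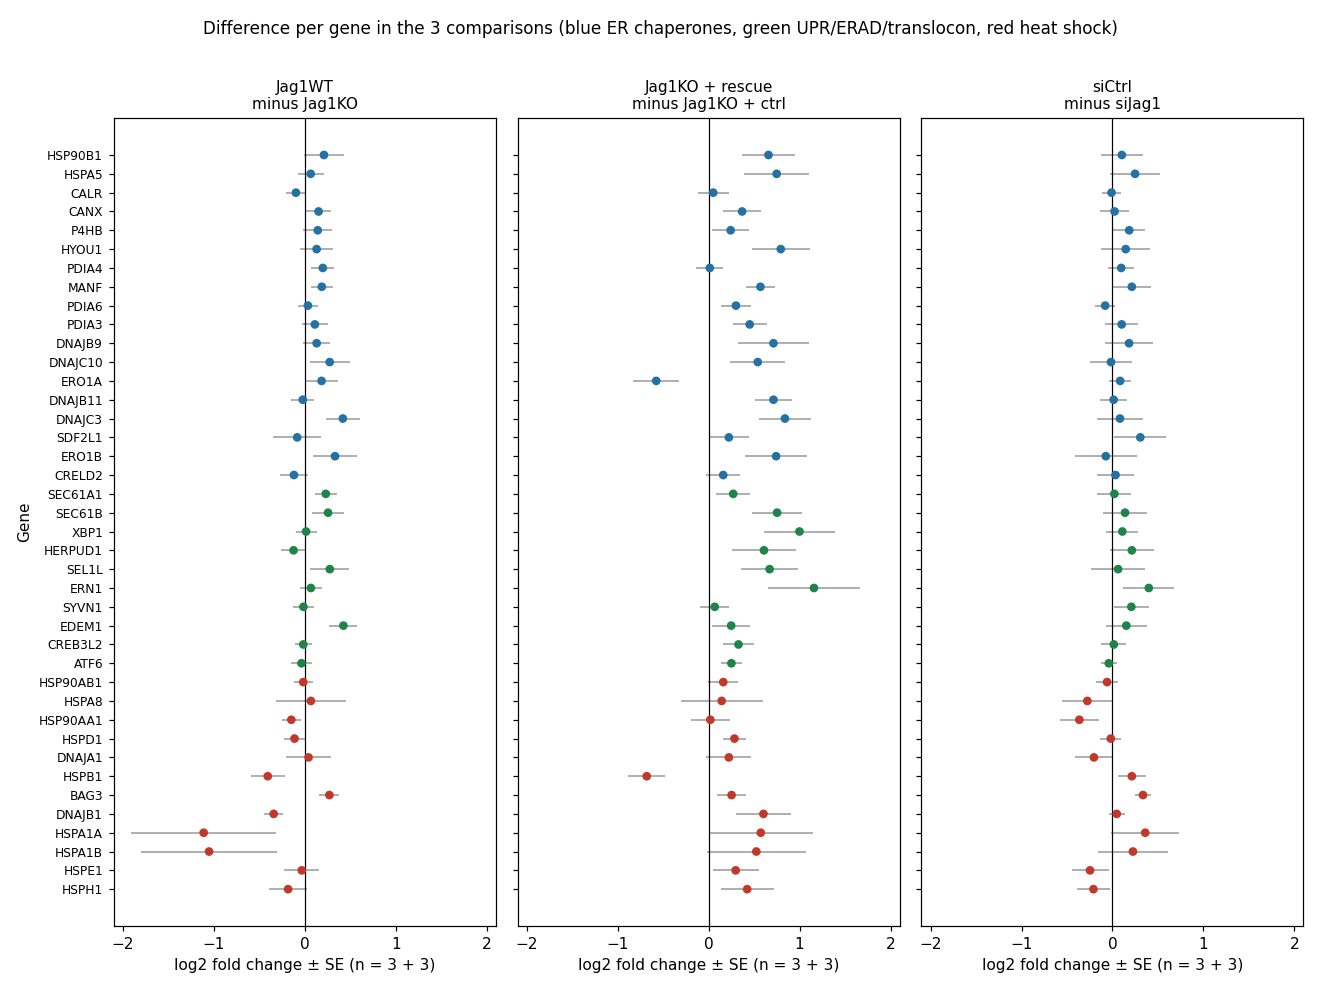
Log2 fold change of each of the 40 genes with its SE in the 3 comparisons (points; n = 3 libraries in each group; blue ER chaperones, green UPR list, red heat shock genes). The points of Jag1WT against Jag1KO and of siCtrl against siJag1 lie around 0, except HSPA1A at -1.11 and HSPA1B at -1.05 in the former. These exceptions came from Jag1KO replicate 1, with HSPA1A at 419.9 and HSPA1B at 315 CPM. In Jag1KO replicates 2 and 3 HSPA1A was at 44.03 and 59.8 CPM, below the Jag1WT mean of 80.8. HSPA1B was at 38.9 and 49.0 CPM there, below the Jag1WT mean of 64.8. In Jag1KO + rescue against Jag1KO + ctrl 38 of 40 points lie above 0. None of the 40 passed an FDR of 0.05 in any panel.

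In Jag1KO + rescue against Jag1KO + ctrl, 38 of the 40 log2 fold changes were positive, and again 0 genes passed the edgeR test, in which 0.00778% of all 12850 genes did. The medians were 0.50 for the ER list, 0.47 for the UPR list and 0.27 for the heat shock list, beside -0.0024 for all genes. At an unadjusted p under 0.05 there were 8 of 40, against 30.8% of all genes. By limma 0 passed, while DESeq2 called DNAJC3, MANF and DNAJB11 higher and HSPB1 lower, with 13.6% of all genes called. The rescue and empty plasmid libraries did not overlap for 7 genes with rescue higher and 1 with rescue lower, where 16.5% and 16% of all genes were separated. The share with rescue higher was thus near that of all genes, and the share with rescue lower was below it.

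The 7 genes higher in every rescue library belong to all 3 lists. DNAJB11, an ER co-chaperone of BiP, was at 143, 111 and 129 CPM with Jagged1 and 66.8, 65.2 and 100.1 with the empty plasmid, a log2 fold change of 0.71 ± 0.20 (FDR 0.105). DNAJC3 was at 314, 259 and 309 against 128, 117 and 245 CPM, with 0.84 ± 0.28 (FDR 0.119). MANF, a secreted factor that is released from stressed ER, was at 236, 208 and 219 against 134, 131 and 179 CPM, with 0.57 ± 0.16 (FDR 0.107). In each of them the library nearest to the rescue group was Jag1KO + ctrl replicate 3. Of the sensors, ERN1 was at 171, 171 and 172 CPM against 54.6, 28.9 and 146, with 1.16 ± 0.50 (FDR 0.164), and ATF6 at 125, 124 and 125 against 105, 101 and 107, with 0.25 ± 0.11 (FDR 0.171). XBP1 gave 1.00 ± 0.39 (FDR 0.139) and the mitochondrial chaperonin HSPD1 0.28 ± 0.13 (FDR 0.172). The rescue libraries agreed closely in ERN1 and ATF6, and the spread of ERN1 came from the empty plasmid libraries, of which replicates 1 and 2 were the lowest of all 18.

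HSPA5 gave 0.75 ± 0.36 (FDR 0.194), HSP90B1 0.66 ± 0.29 (FDR 0.168), CALR 0.05 ± 0.17 (FDR 0.85), SEC61A1 0.27 ± 0.19 (FDR 0.335) and SEC61B 0.75 ± 0.27 (FDR 0.127) in this comparison. The cytosolic genes HSP90AB1, HSPA8 and HSP90AA1 gave 0.16 ± 0.16 (FDR 0.509), 0.14 ± 0.45 (FDR 0.838) and 0.018 ± 0.21 (FDR 0.959). Of the 40 genes, 2 had negative values. HSPB1, a small heat shock protein, was at 84.4, 68.4 and 73.5 CPM with Jagged1 and 136, 141 and 84.5 with the empty plasmid, and gave -0.68 ± 0.21 (FDR 0.109). ERO1A was at 222, 379 and 337 against 568, 474 and 352 CPM, with -0.58 ± 0.25 (FDR 0.164), and its highest values were those of Jag1KO + ctrl replicates 1 and 2.

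These counts changed most without Jag1KO + ctrl replicate 3. The edgeR test then called 33.9% of 12690 genes, and 21 of the 40. The 19 higher in the rescue, where 17.3% of all genes were higher, were HSPA5, HSP90B1, CANX, PDIA3, DNAJB9, DNAJB11, DNAJC3, DNAJC10, HYOU1, MANF and ERO1B of the ER list, all of the UPR list except ATF6, EDEM1 and SYVN1, and DNAJB1 of the heat shock list. ERO1A and HSPB1 were lower. XBP1 then differed by 1.65 (FDR 0.00284) and ERN1 by 2.04 (FDR 0.00349) on the log2 scale, against a lone pair of empty plasmid libraries with proliferation means of 6.42 and 6.89. With all 18 libraries in 1 fit, 6 genes were higher (DNAJB11, DNAJC3, MANF, XBP1, ERN1 and DNAJB1) and 2 lower (ERO1A and HSPB1), with 26.1% of all genes called. With the proliferation mean as a covariate in that fit, 5 were higher (DNAJB11, DNAJC3, XBP1, ATF6 and HSPD1) and 0 lower, with 16.4% of all genes called, and the median of the ER list was 0.11. Here too the covariate differed between the groups and may remove part of the difference compared.

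**Figure D3:**
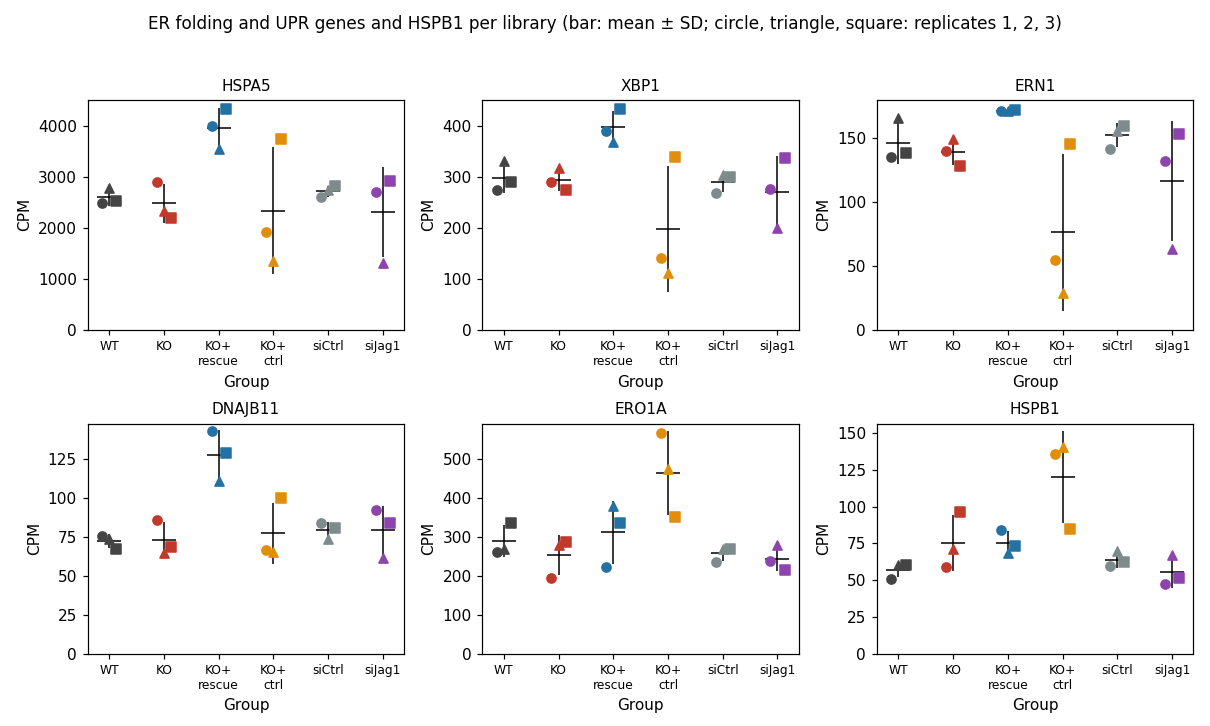
CPM of 6 genes in each library by group (points; circle, triangle and square are replicates 1, 2 and 3; bar and line, mean ± SD of 3 libraries; axes start at 0). HSPA5, XBP1 and ERN1 were low in Jag1KO + ctrl replicates 1 and 2, where ERO1A and HSPB1 were at their highest. DNAJB11 was at 66.8 and 65.2 CPM in those libraries, within the Jag1KO range of 64.7 to 86.1, and at 111 to 143 CPM in Jag1KO + rescue.

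In siCtrl against siJag1, 0 of the 40 genes passed the edgeR test, against 0.0157% of 12774 genes, and none passed by limma or DESeq2. The medians were 0.09, 0.12 and -0.039 for the ER, UPR and heat shock lists, and -0.0073 for all genes. HSP90B1, HSPA5 and CALR gave 0.10 ± 0.23 (FDR 0.983), 0.25 ± 0.27 (FDR 0.97) and -0.011 ± 0.11 (FDR 0.997). SEC61A1, SEC61B and XBP1 gave 0.021 ± 0.19 (FDR 0.996), 0.14 ± 0.24 (FDR 0.979) and 0.11 ± 0.18 (FDR 0.979). HSP90AB1, HSPA8 and HSP90AA1 gave -0.06 ± 0.12 (FDR 0.982), -0.28 ± 0.28 (FDR 0.97) and -0.36 ± 0.21 (FDR 0.97). The siJag1 libraries were spread by replicate 2, in which HSPA5 was at 1300.4 CPM and the other siJag1 libraries at 2692 and 2922. Without siJag1 replicate 2 the medians turned to -0.094 and -0.067 for the ER and UPR lists and were 0.00032 for the heat shock list, HSP90B1, HSPA5, SEC61A1, SEC61B and XBP1 turned to -0.11, -0.031, -0.17, -0.10 and -0.063, and HSPA8 and HSP90AA1 gave -0.039 and -0.066, with 0 of the 40 called. BAG3 was the only gene of the 40 at an unadjusted p under 0.05, where 3.83% of all genes were, and the only 1 whose groups were apart. It was at 172, 162 and 167 CPM in siCtrl and 139.6, 131 and 128 in siJag1, with 0.34 ± 0.087 (FDR 0.97). Of all genes, 5.15% were separated with siCtrl higher and 5.32% with siCtrl lower.

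BAG3 was thus above its JAG1-low counterpart in every library in both comparisons that include neither Jag1KO + rescue nor Jag1KO + ctrl, by 0.27 and 0.34 on the log2 scale. Of 12683 genes tested in both, 1.37% were apart in this direction in both. The comparisons are not independent, since siCtrl and Jag1WT libraries with the same number deviated together. In the plasmid lines BAG3 was at 228, 155 and 194 CPM with Jagged1 and 154, 163 and 165 with the empty plasmid, where the groups overlapped (0.25 ± 0.16 (FDR 0.298)). It was singled out after its values had been seen, and it passed no FDR threshold.

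Differences between the comparisons were tested directly over 12 libraries. None of the 40 genes differed between the knockout and siRNA effects, between the knockout and rescue effects, or between the rescue and siRNA effects at an FDR of 0.05 by edgeR or by limma, where 0.11%, 0.555% and 0.094% of all genes did. At an unadjusted p under 0.05 there were 2, 5 and 4 of 40, against 3.88%, 22.2% and 20% of all genes. Without Jag1KO + ctrl replicate 3, 11 genes had a smaller knockout than rescue effect, among them XBP1, ERN1, HSPA5 and HYOU1, where 10.3% of all genes did. In the control comparisons, in which JAG1 was not changed on purpose, 0 of 40 genes passed, with 0% of all genes called in Jag1KO + ctrl against Jag1KO and 0% in siCtrl against Jag1WT. At an unadjusted p under 0.05, Jag1KO + ctrl against Jag1KO had 4 of the 40 genes, ERO1A, HSPH1, HSP90AA1 and HSPB1, all higher in Jag1KO + ctrl, against 5.81% of all genes, and siCtrl against Jag1WT had 0, against 1.38%. The 4 became 1 without Jag1KO replicate 2 or Jag1KO + ctrl replicate 1, where 2.44% and 1.51% of all genes were at such a p. The count became 2 without Jag1KO replicate 3 (4.18% of all genes) and 3 without Jag1KO + ctrl replicate 2 (2.14%). It became 8 without Jag1KO replicate 1 (7.34%) and 14 without Jag1KO + ctrl replicate 3 (24.4%). By limma and DESeq2, 0 passed in both. Jag1KO and Jag1KO + ctrl serve in several of these comparisons, which are therefore not independent.

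Other genes of the same machinery were listed with the design. Of 47 other ER folding, degradation and translocation genes and of the 35 to 37 tested among 40 other heat shock and co-chaperone genes, 0 passed in any of the 3 main comparisons. The medians of the other ER genes were 0.14, 0.34 and 0.037 in Jag1WT against Jag1KO, the rescue and the siRNA comparison, and those of the other heat shock genes -0.10, 0.29 and -0.071. The smallest FDR among them was that of the small heat shock gene HSPB8 in the rescue, with a log2 fold change of 2.20 ± 0.36 (FDR 0.104).

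Many ER and UPR genes varied with HSPA5 between libraries of the same group, to an extent that rested on 2 libraries. After group means had been removed, the correlation with HSPA5 over the 18 libraries was above 0.8 for 8 of the other 17 ER genes (47.1%) and 9 of 10 UPR genes (90%), against 8.01% of all genes, and for 0 of 12 heat shock genes. The points share their libraries, so the coefficients are a description. Without siJag1 replicate 2 and Jag1KO + ctrl replicate 3, 0 of the ER, UPR and heat shock genes were above 0.8, against 0.541% of all genes, and the medians were 0.56 for the ER list, 0.63 for the UPR list and 0.38 for the heat shock list, beside 0.036 for all genes. With all 18 libraries, ERN1, HYOU1, DNAJB9 and SEC61A1 had values of 0.95, 0.94, 0.94 and 0.93. CALR (-0.036) and ATF6 (-0.032) stood outside, and ERO1A (-0.56), HSPB1 (-0.75) and HSP90AA1 (-0.60) moved the other way. Without the 2 libraries ERN1, HYOU1, DNAJB9 and SEC61A1 had 0.75, 0.75, 0.70 and 0.62, CALR 0.23, ATF6 -0.094, ERO1A -0.25, HSPB1 -0.30 and HSP90AA1 0.19. The spread within groups ranged from an SD of 0.078 log2 units for HSP90AB1 and 0.085 for ATF6 to 0.55 for ERN1, 0.64 for HSPA8 and 1.04 for HSPA1A.

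Most ER and UPR genes were lower where the proliferation mean was higher. In an edgeR fit over all 18 libraries with the groups and the proliferation list mean, chosen after the data had been seen, 27 of the 40 genes fell and 2 rose with that mean at an FDR of 0.05, where 22% of 12757 genes fell and 24.8% rose. By list, 16 of 18 ER genes, 8 of 10 UPR genes and 3 of 12 heat shock genes fell. The change in log2 expression per unit of the proliferation mean was -0.55 ± 0.04 (FDR 1.98e-08) for ERO1B, -0.49 ± 0.036 (FDR 2.79e-08) for SEL1L, a subunit of the degradation complex, -0.43 ± 0.034 (FDR 6.03e-08) for the reductase DNAJC10, -0.42 ± 0.047 (FDR 3.09e-06) for HYOU1 and -0.39 ± 0.041 (FDR 1.55e-06) for HSP90B1. It was -0.38 ± 0.07 (FDR 0.000368) for HSPA5, -0.21 ± 0.041 (FDR 0.000531) for SEC61A1 and -0.36 ± 0.051 (FDR 3.86e-05) for SEC61B. CALR (-0.022 ± 0.04 (FDR 0.677)), HSP90AB1 (0.011 ± 0.035 (FDR 0.806)), HSPA8 (-0.17 ± 0.17 (FDR 0.423)) and HSP90AA1 (0.12 ± 0.068 (FDR 0.158)) did not pass. ERO1A and HSPB1 rose, by 0.23 ± 0.064 (FDR 0.00842) and 0.26 ± 0.05 (FDR 0.000643).

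Part of this rested on the libraries farthest from their group means, siJag1 replicate 2 and Jag1KO + ctrl replicate 3. Of the 24 ER and UPR genes that fell, 15 also fell without both, among them HSP90B1 (-0.44), ERO1B (-0.53), DNAJC10 (-0.41) and SEL1L (-0.42). The other 9 did not pass, namely HSPA5, DNAJB9, MANF, CRELD2, ERN1, XBP1, HERPUD1, SYVN1 and SEC61A1. With the replicate number added to the fit of all 18 libraries, all of these 9 except CRELD2 fell. Of the 15, PDIA4, PDIA6 and SDF2L1 did not pass in that fit (FDR 0.209, 0.104 and 0.573). Without the 2 libraries, the slopes of ERN1, XBP1 and HERPUD1, the last an organizer of ER-associated degradation, were 0.015, 0.034 and 0.096. They had been -0.42, -0.28 and -0.27 with all libraries. Single libraries show this too. Jag1KO replicates 2 and 3 had proliferation means of 6.00 and 6.26, near the 6.42 and 6.89 of Jag1KO + ctrl replicates 1 and 2. ERN1 was at 140.3, 149 and 129 CPM in replicates 1, 2 and 3 of Jag1KO and at 54.6, 28.9 and 146 in Jag1KO + ctrl. ERO1B, in contrast, was at 35.0, 20.2 and 18.5 and 24.2, 15.6 and 40.7 CPM, low in both pairs. In the heat shock list 6 of 12 genes fell without the 2 libraries, HSPA8, HSPH1, DNAJA1 and HSPE1 besides HSPA1A and HSPA1B, where 3 had fallen with all libraries, and 19.7% of all genes fell. Of the rising genes HSPB1 still passed, ERO1A did not (slope 0.23, FDR 0.069), and ATF6 rose (0.12, FDR 0.0496). With the replicate number added to the fit of all 18 libraries, 2 of the 12 heat shock genes fell, against 14.5% of all genes. HSPA8, HSPH1, DNAJA1 and HSPE1 then had slopes of 0.26, 0.029, 0.12 and 0.12 and did not pass. The proliferation mean was highest in replicate 2 of every group except Jag1KO, so growth state and replicate number cannot be fully told apart.

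**Figure D4:**
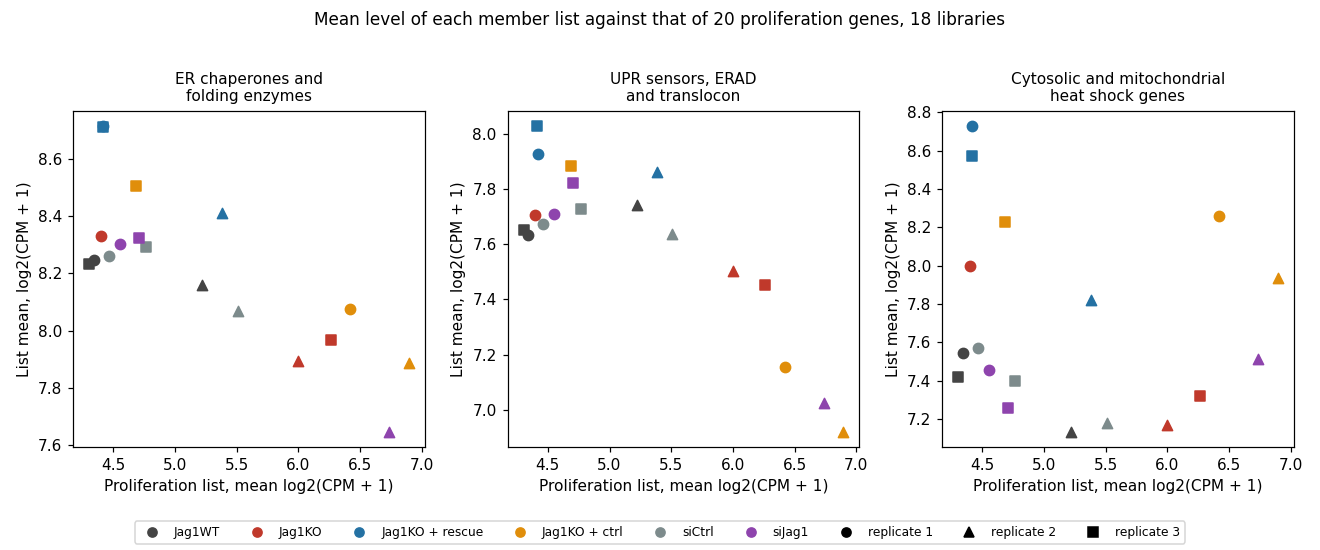
Mean log2(CPM + 1) of each member list (vertical) against that of 20 proliferation genes (horizontal) in the 18 libraries (1 point each; colour is the group, shape the replicate). The UPR mean was lowest in siJag1 replicate 2 and Jag1KO + ctrl replicates 1 and 2, which had the highest proliferation means. The heat shock mean was 7.82 or higher in the 6 plasmid libraries and 7.57 or lower in all others except Jag1KO replicate 1.

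Several heat shock genes were high in the plasmid lines. HSPA1A was at 104, 41.2 and 97.1 CPM in Jag1WT, 419.9, 44.03 and 59.8 in Jag1KO, 841, 286 and 791 in Jag1KO + rescue and 422, 147 and 708 in Jag1KO + ctrl. After siRNA it stood at 117, 44.6 and 67.4 CPM in siCtrl and 83.2, 39.7 and 57.4 in siJag1. HSPA1A was thus at 147 to 841 CPM in the 6 plasmid libraries, at 420 CPM in Jag1KO replicate 1 and at 117 CPM or less in the other 11 libraries. HSPA1B was at 86.0, 35.2 and 73.2 CPM in Jag1WT, 315, 38.9 and 49.0 in Jag1KO, 556, 204 and 570.2 in Jag1KO + rescue and 310.4, 113 and 493 in Jag1KO + ctrl. The siRNA cultures gave 95.0, 34.6 and 54.1 CPM in siCtrl and 71.5, 34.3 and 53.0 in siJag1. HSPA1B followed its neighbour library by library. The heat shock list mean was 8.73, 7.82 and 8.57 log2(CPM + 1) in Jag1KO + rescue, 8.26, 7.94 and 8.23 in Jag1KO + ctrl, 8.0, 7.17 and 7.32 in Jag1KO and 7.54, 7.13 and 7.42 in Jag1WT.

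A test of both plasmid groups together against Jag1KO over 9 libraries, chosen after the data had been seen, called 0 of the 40 genes by edgeR, where 0.00784% of all genes passed, and 0 by limma and DESeq2. The unadjusted p was under 0.05 for 13 of the 40 genes, all higher with a plasmid, against 3.29% of all genes. This count depended on single libraries, and the share of all genes moved too. It was 1 without Jag1KO replicate 2 (1.76% of all genes) and 3 without Jag1KO replicate 3 (1.7%). It was 5 without Jag1KO + rescue replicate 1 (3.38%) or 3 (1.78%) and 6 without Jag1KO + ctrl replicate 1 (2.3%). Without 1 of the others it was 14 to 17, where 3.09% to 7.8% of all genes were at such a p. The 13 were CALR, PDIA3, PDIA4, PDIA6, DNAJB11, MANF and ERO1A of the ER list and HSPH1, DNAJB1, DNAJA1, HSP90AA1, HSP90AB1 and BAG3 of the heat shock list. HSPH1, an Hsp110 that recharges Hsp70, was at 264, 114 and 234 CPM in Jag1KO + rescue, 166, 125 and 161 in Jag1KO + ctrl and 128, 77.8 and 82.1 in Jag1KO, with a log2 fold change of 0.85 ± 0.27 (FDR 1). For HSPA1A it was 1.55 ± 0.79 (FDR 1), and it ranged from 1.09 without Jag1KO replicate 2 and 1.14 without Jag1KO replicate 3 to 3.31 without Jag1KO replicate 1 (FDR 0.605). With all 18 libraries and the proliferation mean as a covariate it was 1.80 (FDR 0.0606). The plasmid, the selection with G418 and the later passage of these cells cannot be told apart, as all 6 libraries share them.

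**Figure D5:**
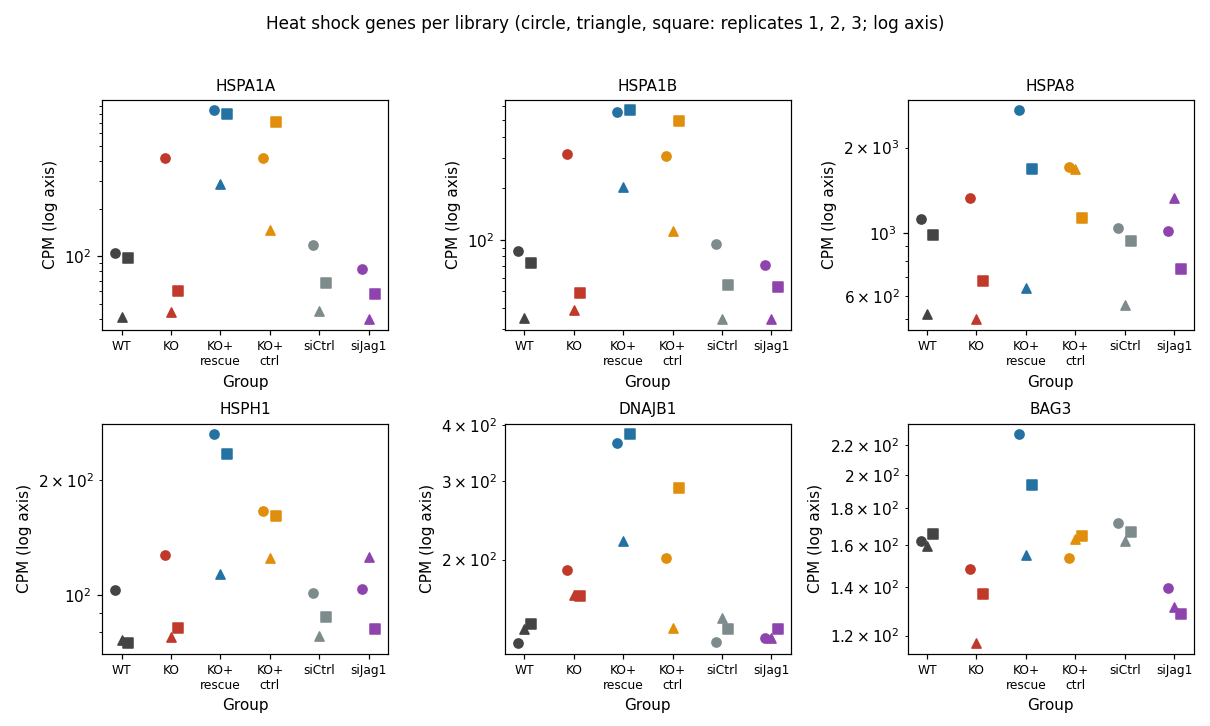
CPM of 6 heat shock genes in each library by group (points; circle, triangle and square are replicates 1, 2 and 3; logarithmic vertical axes that differ between panels). HSPA1A and HSPA1B were high in both plasmid groups and in Jag1KO replicate 1, and BAG3 was higher in Jag1WT than in Jag1KO and higher in siCtrl than in siJag1 in every library.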

How the data were processed

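Messenger RNA of 18 libraries was analysed. The libraries were made with a stranded kit and read from both ends. The authors aligned the reads to hg38, used those with 1 mapping position for the count of each gene, and deposited these counts as whole numbers (per the labels with featureCounts and edgeR 3.28.0; the aligner is not given in the sources used here). The deposited CPM signal is the authors' count divided by 1 TMM-scaled constant per library, and the deposited RPKM is that CPM divided by 1 length per gene, both as checked on the values. Of the RPKM values, 3 columns spelled siJaq1 match no sample label and were not used, so siJag1 has no RPKM here.

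Groups were taken from the labels, which name the replicates as biological. Rows without a symbol (292, at most 0.0442% of a library's counts) were left out. Each of 5 comparisons of 2 groups was tested with the quasi-likelihood test of edgeR 4.0.16 in R 4.3.3 on the counts with TMM factors, for genes above 1 CPM in at least 3 of 6 libraries, and p values were adjusted by Benjamini-Hochberg over all genes tested. An FDR below 0.05 was called. The SE is the log2 fold change divided by the root of the F statistic. Differences between comparisons were tested over 12 libraries, for genes above 1 CPM in at least 6. The study's own test, ROTS on log2(CPM + 1), was not run, and limma 3.58.1 on that scale and DESeq2 1.42.0 were alternatives. Scripts were tested on simulated counts. The members, lists and tests were chosen with earlier results of these data known. The genes given in full were to be those called in a main comparison and the 3 highest in RPKM of each list. As none was called, further genes were named after their values were seen.

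Libraries with the same number deviated together in siCtrl and siJag1 (correlations across genes 0.543, 0.522 and 0.264) and in siCtrl and Jag1WT (0.595, 0.713 and 0.21), as read from the data and not from the labels. In the other comparisons at least 1 of 3 correlations was under 0.1. Replicates differed by more than sampling noise (chi-square per degree of freedom 7.37 to 107).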

Additional observations from a re-analysis of the deposited data

How the results depend on the processing

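Under limma, RLE size factors, no filter on low counts and the replicate block, the number of the 40 genes called stayed at 0. This held in all 5 comparisons of 2 groups and in all 3 tests of differences between comparisons. The replicate block thus changed no call there, with 0 genes also in siCtrl against siJag1, where the numbers pair the libraries. An added fold change above 1.5 can only lower a count of calls, so it could not change a count of 0. In Jag1KO + rescue against Jag1KO + ctrl, DESeq2 called 3 genes higher and 1 lower, the fit of all 18 libraries 6 higher and 2 lower, and that fit with the proliferation covariate, chosen after seeing the data, 5 higher and 0 lower. Leaving out 1 library at a time gave 0 to 6 higher and 0 to 1 lower in Jag1WT against Jag1KO, and 0 to 19 higher and 0 to 2 lower in Jag1KO + rescue against Jag1KO + ctrl. It gave 0 to 1 higher and 0 to 2 lower in Jag1KO + ctrl against Jag1KO, where ERO1A was higher and ERN1 and XBP1 lower without Jag1KO + ctrl replicate 3, with 2.35% of all genes called. The knockout effect was below the rescue effect for 0 to 11 genes, and the rescue effect was above the siRNA effect for 0 to 4 and below it for 0 to 1, the upper ends coming with 19.9% and 15.1% of all genes called. The upper ends came without Jag1KO replicate 1 in Jag1WT against Jag1KO and without Jag1KO + ctrl replicate 3 in all the others. The number at an unadjusted p under 0.05 likewise went from 3 to between 1 and 16 in Jag1WT against Jag1KO, where 4.95% to 27.2% of all genes were. In Jag1KO + rescue against Jag1KO + ctrl it went from 8 to between 3 and 25, where 13.3% to 47.2% of all genes were, the upper ends coming together. The cause was not tested.

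The number of the 40 genes falling with the proliferation mean was 27 with all libraries, where 22% of all genes fell, and 23 under the replicate block (14.5% of all genes). It was 21 without the 2 farthest libraries (19.7%) and 22 to 27 when 1 library was left out (18.5% to 23.5%). Over all genes, the count called in Jag1KO + rescue against Jag1KO + ctrl went from 1 to 709 higher and 1045 lower by DESeq2, 1579 and 1776 in the fit of all 18 libraries, 1084 and 1011 with the covariate, and 2199 and 2100 without Jag1KO + ctrl replicate 3. In Jag1WT against Jag1KO it went from 53 higher and 39 lower to 147 and 126 by DESeq2, 187 and 151 under the replicate block, and 202 and 100 with the covariate. In the difference of the rescue and siRNA effects it went from 12 to 119 positive and 365 negative under the replicate block.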
